A study of Mus musculus with 36 samples.

Results

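Potassium channel genes were followed through the differentiation of mouse HM1 embryonic stem cells towards motor neurons, starting from neuromesodermal progenitors. A gene was included if its symbol began with Kcn, if it was protein-coding in GENCODE M21, and if it had at least 10 counts in 3 or more of the 36 libraries. Of 99 Kcn symbols among 51912 gene IDs, 94 were protein-coding and 79 met the count minimum, and all 79 were among the 17990 genes tested. Just inside the minimum were Kcnj6, with 10 counts in 3 libraries, and Kcnq1, with 4. Just outside were Kcna7, Kcnj15 and Kcnk13, with 1 library each, and the other 12 of the 15 genes left out reached 10 counts in 0 libraries. The Kcn symbol covers more than channels, since 13 members encode auxiliary subunits that form no pore and Kcnrg encodes a channel regulator.

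All groups shared the same cells and the same start. Feeder cells were removed before plating in N2B27 medium, bFGF was given over the first days, and CHIR99021, SB431542 and DMH1 were present on the day before day 0. The day 7, 6, 5, 4, 3.5, 3, 2.5, 2, 1.5, 1 and 0.5 libraries had then received 100 nM retinoic acid and 500 nM of the Hedgehog pathway agonist SAG. The day 0 libraries, labelled control, had received neither. Each of the 12 time points had 3 libraries of polyadenylated RNA, with 26567321 to 35757989 counts per library. The labels call the libraries bioreps without saying whether they were grown as separate cultures, and the p-values cover the spread between libraries, which may be technical. No untreated libraries of the later days were analysed, so the effect of either agent and that of time in culture cannot be told apart. In bulk RNA, fewer cells of a type and less RNA per cell cannot be told apart either.

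Potassium channels set the resting potential of a cell and end its action potentials. Voltage-gated (Kv) channels open on depolarisation, inward rectifiers (Kcnj) and two-pore-domain channels (Kcnk) conduct near rest, and Kcnn, Kcnma and Kcnt channels open with internal calcium or sodium. Neurons gain many of these currents as they mature, and Kcnj and Kcnk channels also carry the potassium permeability of progenitors and glia.

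The summed level of the 79 members fell over the first day and then climbed to its highest value at day 7. Summed TPM, a length-corrected share of the transcripts of each library, averaged 202 ± 5.62 at day 0, 163 ± 3.86 at day 0.5, 131 ± 7.01 at day 1 and 132 ± 1.72 at day 1.5 (SD, n = 3 each). It then averaged 174 ± 3.76 at day 2, 203 ± 1.59 at day 2.5, 250.0 ± 5.90 at day 3, 235 ± 6.36 at day 3.5 and 276 ± 7.43 at day 4. At days 5, 6 and 7 it averaged 327 ± 11.8, 429.5 ± 36.3 and 485 ± 13.95 TPM. The gene with the largest share of the sum changed over time. It was Kcnk1 at days 0 and 0.5 (15.8% of the sum at day 0), Kcnip3 at day 1 (10.0%), Kcnh2 from day 1.5 to day 5 (24.1% at day 2.5) and Kcnip1 at days 6 and 7 (9.17% at day 7). At least 1 TPM on average was reached by 32 members at day 0, by 25 at day 1.5 and by 58 at day 7.

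**Figure D1:**
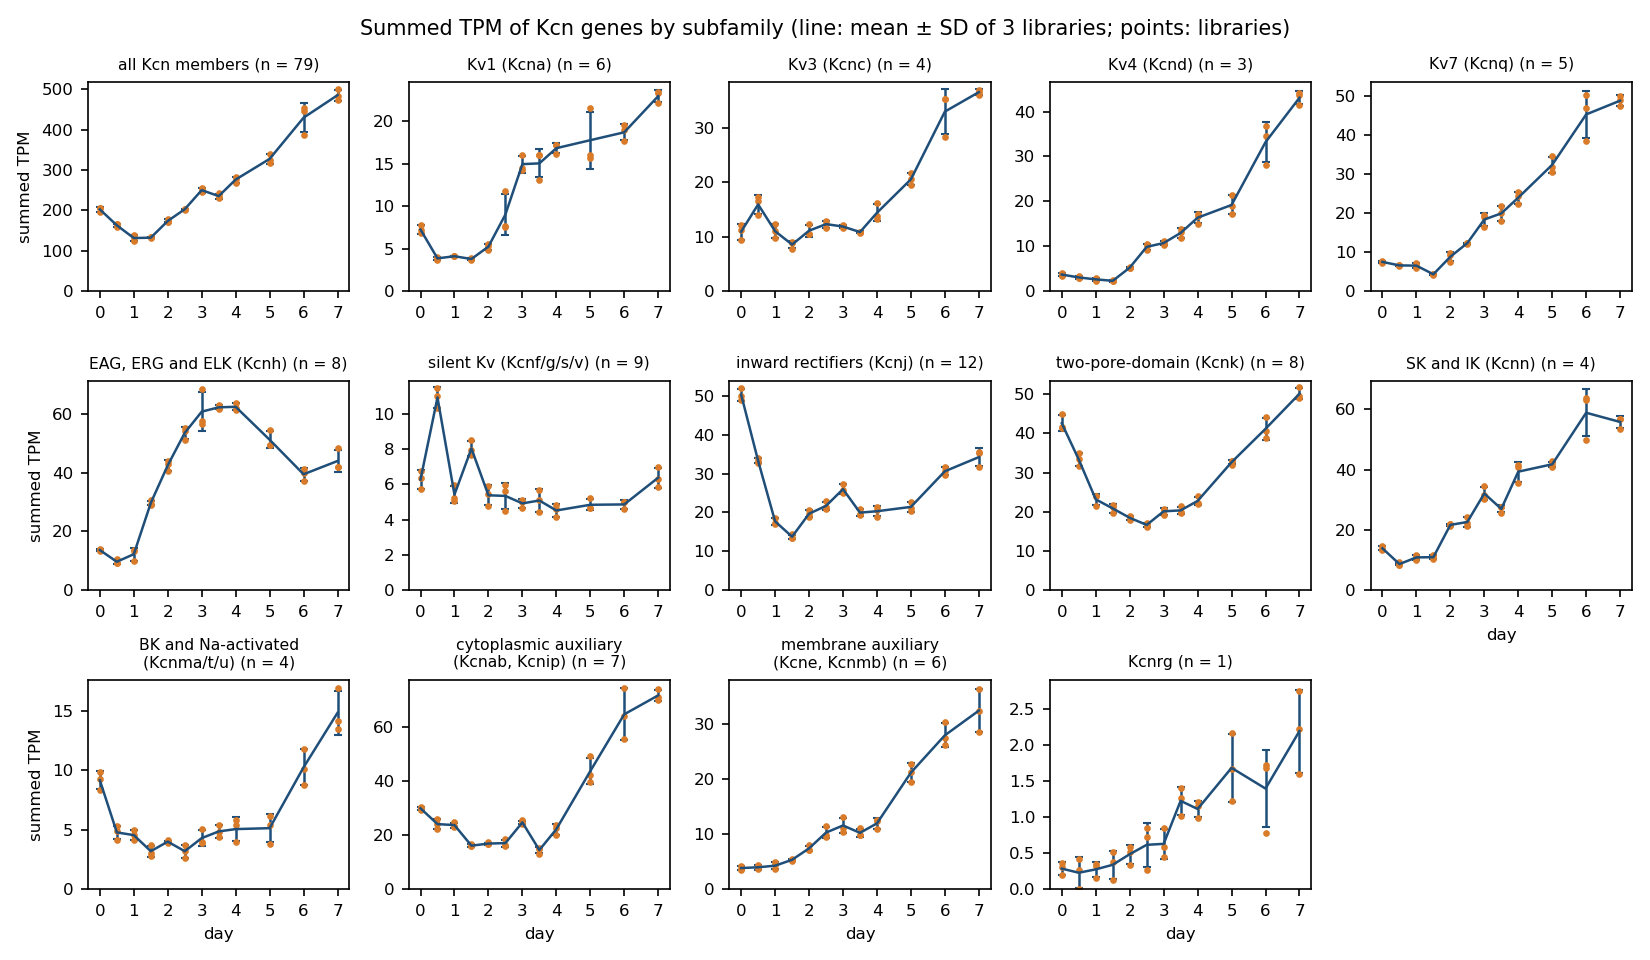
Summed TPM (vertical axes, from 0, each with its own scale) of all 79 Kcn genes and of subfamilies against day (horizontal axes), with the mean ± SD of 3 libraries as a line with bars and each library as a point; n is the number of genes. Inward rectifiers and two-pore-domain genes started high and fell to a low at day 1.5 or 2.5. The two-pore-domain sum then rose to its highest value at day 7, at 50.1 TPM beside 42.6 TPM at day 0. The Kcnh genes stood highest around days 3 to 4, and Kv4, Kv7, Kv3 and auxiliary subunit genes were highest at day 7.

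Most members were highest at an end of the course. Mean TPM was highest at day 7 for 41 of the 79 members (51.9%, against 26.0% of all tested genes) and at day 0 for 14 (17.7%, against 16.8%). Another 5 were highest at day 0.5, 6 at day 6 and 13 at the 8 days from 1 to 5. Of the 41 day 7 members, 21 had libraries that overlapped with those of their second highest day. Members read in few libraries can have met the count minimum through the days where they were high. In CPM, the library-scaled counts without length correction, 71 of the 79 kept the same day. The split held for high and low members alike, with 21 of the 43 members that averaged at least 1 TPM and 20 of the 36 below it highest at day 7.

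**Figure D2:**
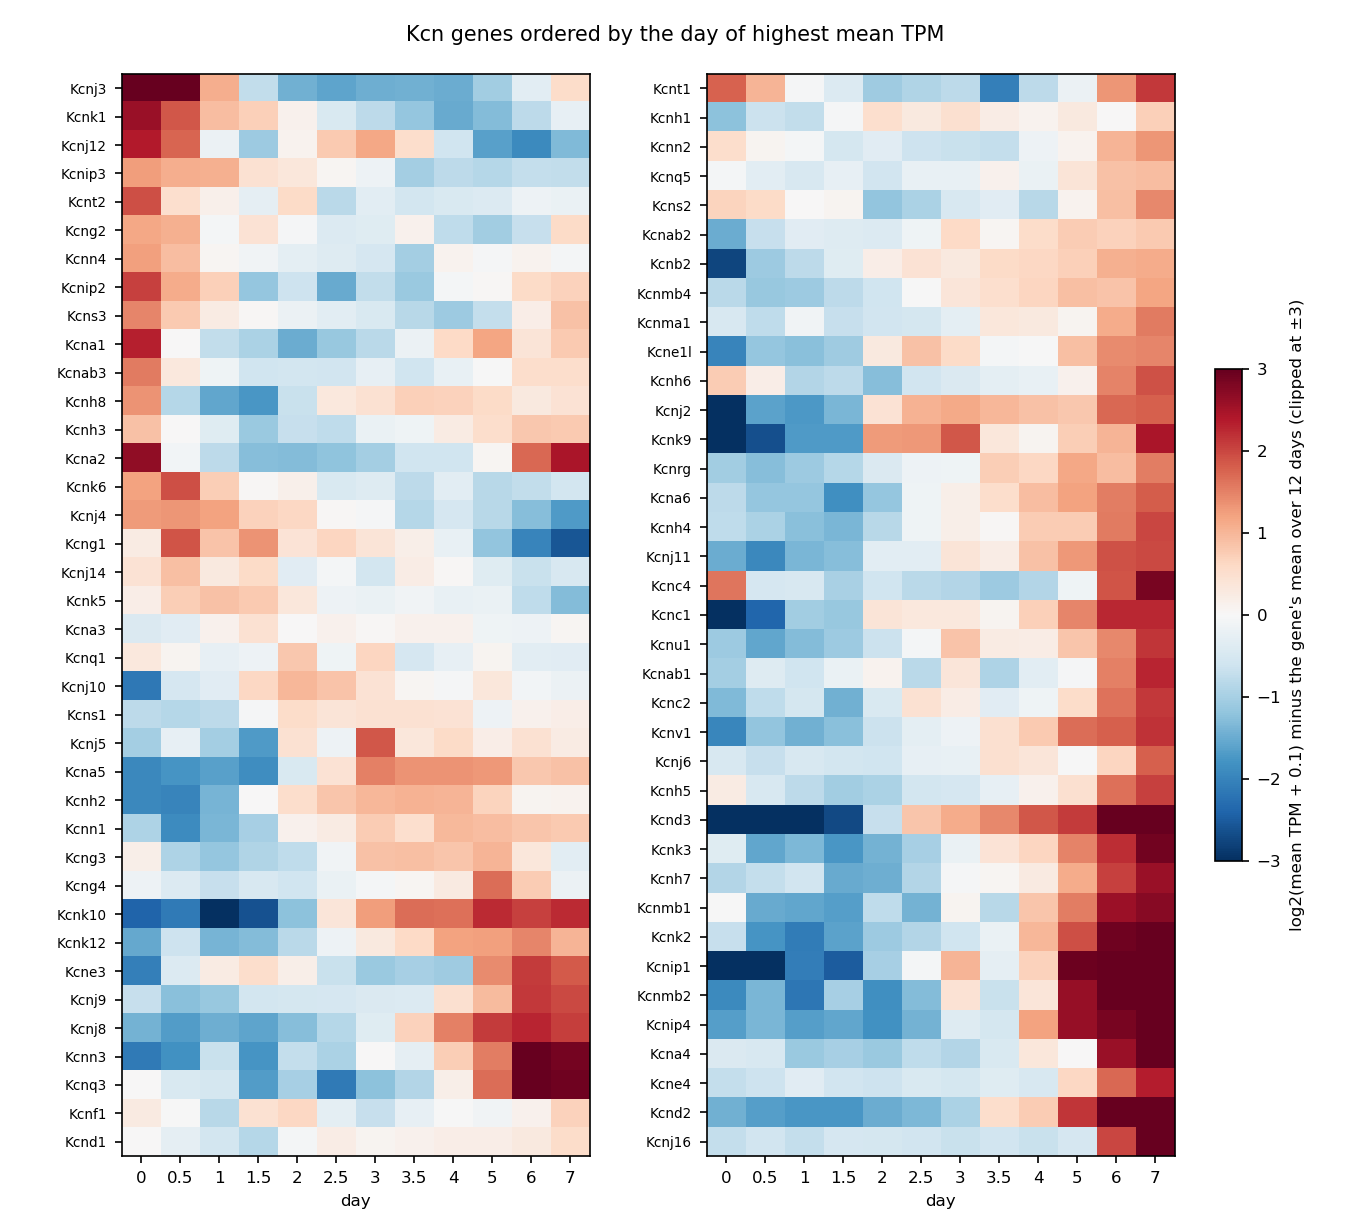
Each row is 1 of 75 Kcn genes and each column 1 of the 12 days; colour gives log2(mean TPM + 0.1) minus the gene's own mean over the 12 days, clipped at ±3, and rows run by the day of the highest mean. The 14 genes highest at day 0 stand at the top left and the 39 highest at day 7 fill the lower left and the right panel.

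Neighbouring stages were compared for all 17990 genes with edgeR's quasi-likelihood test, and a gene was called at a Benjamini-Hochberg adjusted p under 0.05. At day 0.5 against day 0, 19 members were higher and 26 lower (24.1% and 32.9%), where 27.6% of all tested genes were higher and 26.7% lower. At day 2 against day 0.5, 27 were higher and 25 lower (34.2% and 31.6%), beside 33.9% and 34% of all genes. Called in either direction were 54.3% and 67.9% of all genes in these comparisons. For calls of any size, both member splits lay near that of all genes. At day 4 against day 2, 43 were higher and 17 lower (54.4% and 21.5%), beside 33.1% and 31.8% of all genes. At day 7 against day 4, 52 were higher and 10 lower (65.8% and 12.7%), beside 33.5% and 32.9%. Called in either direction were 64.9% and 66.3% of all genes in these 2 comparisons. The median log2 fold change of the members was -0.25, 0.10, 0.59 and 0.94 over the 4 comparisons in that order, while that of all tested genes lay within 0.012 of 0 in each. Scaling between libraries holds the all-gene median near 0, so it serves as a reference and is not a separate result. Called changes of at least 2-fold were counted as well. At day 0.5 against day 0, 9 members were higher and 13 lower by this measure, beside 5.58% and 8.19% of all genes. At day 2 against day 0.5 there were 21 and 19, beside 12.1% and 10.2%, and at day 4 against day 2 there were 32 and 10, beside 11.4% and 6.71%. At day 7 against day 4 there were 36 and 5, beside 13.4% and 6.98%. Taken as shares of the 79 members, these 2-fold counts exceeded the shares of all genes, except for the falls at day 7. Members could meet the count minimum through late days, so part of the rises at day 7, of any size, can follow from the rule. Kcnj6, Kcne4, Kcnj16 and Kcna4, all highest at day 7, reached 10 counts in 3, 6, 6 and 8 libraries. The TPM of the libraries did not overlap between the days for 41, 52, 56 and 64 of the 79 members in the same order of comparisons, and for 56.6%, 66.6%, 63.1% and 64.9% of all genes. Over the 12 time points an F test called all 79 members, but it also called 96.1% of all tested genes.

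**Figure D3:**
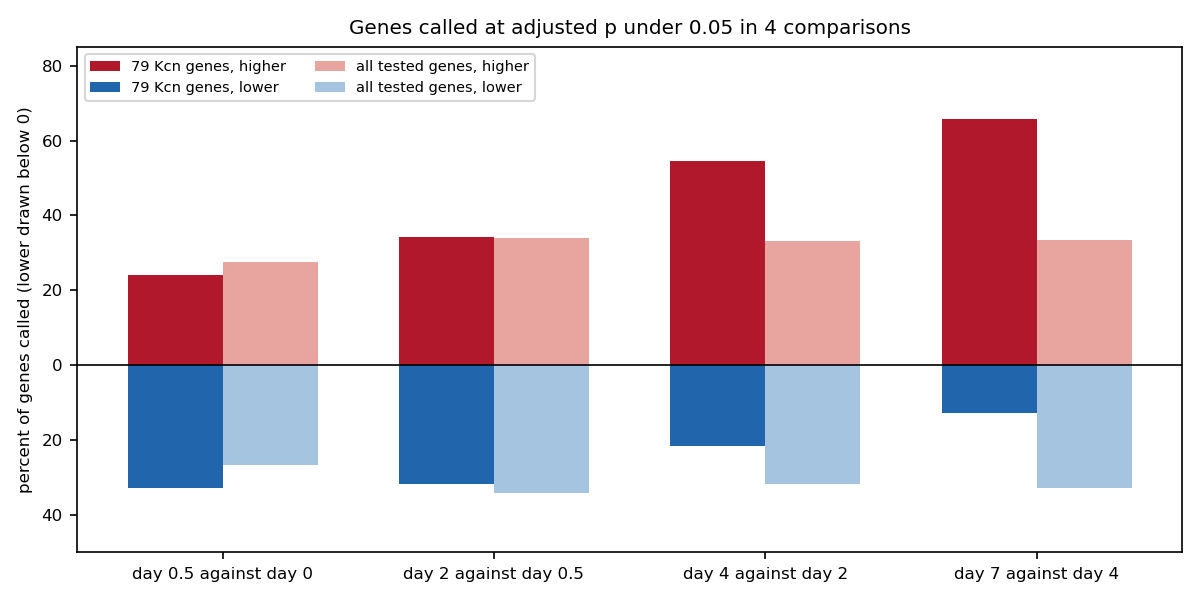
Percent of genes called higher (drawn up from 0) and lower (drawn down from 0) in 4 comparisons, each of the later day against the earlier, with the 79 Kcn genes as the left, dark bar of each pair and all 17990 tested genes as the right, pale bar. The bars count calls of any size and lie near each other in the first 2 comparisons. At day 7 against day 4 the Kcn bars reach 65.8% higher and 12.7% lower.

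Markers of other cell types moved in the same libraries. At day 4 against day 2, 6 pan-neuronal markers summed to 1918 to 2089 TPM, against 496 to 555 TPM, with 6 of 6 higher. Over the same days 7 astroglial markers summed to 1565 to 1864 TPM at day 4, against 70.9 to 72.6 TPM at day 2. Of these, 4 were higher (Fabp7, Aldh1l1, Aqp4 and Nfia) and 1 lower (Slc1a3), so the sum does not stand for each marker. Gfap was not called there or at day 7 against day 4. The 6 motor neuron markers summed to 170 to 189 TPM at day 4, against 118 to 128 TPM at day 2, with 3 higher and 1 lower. The pan-neuronal sum was 2346 to 2517 at day 7, against 1918 to 2089 at day 4, with 4 of 6 higher. Over 6 motor neuron markers the sum was 13.0 to 15.3 at day 7, against 170 to 189 at day 4, and all 6 fell. Astroglial markers summed to 3411 to 3567 at day 7, against 1565 to 1864 at day 4, with 6 of 7 higher and S100b at 0 in every day 4 library. Oligodendrocyte lineage markers summed to 94.8 to 100.4 at day 7, against 37.0 to 38.1 at day 4, with 4 of 5 higher. Mural cell markers summed to 112 to 169 at day 7, against 70.4 to 74.1 at day 4, with 5 of 6 higher and 1 lower. Other lists fell. The 5 neural progenitor markers summed to 345.5 to 373 at day 7, against 488 to 530 at day 4, and all 5 were lower. At day 4 against day 2, 1 of them was higher and 3 lower. Endothelial markers summed to 44.8 to 50.9 at day 7, against 64.9 to 80.9 at day 4, with 1 higher and 5 lower. The 5 caudal epiblast markers, all lower in both early comparisons, summed to 549.9 to 604 at day 0, 83.9 to 116 at day 0.5 and 4.50 to 6.15 at day 2. The part of these cell types in the changes of the Kcn genes was not tested.

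Voltage-gated channels of the Kv1 family repolarise axons and set firing threshold. Their 6 measured members split by time. Kcna1 and Kcna2, the axonal low-threshold subunits, were highest at day 0. Kcna2 (ENSMUSG00000040724, chromosome 3, 107101146 to 107115005, plus strand, GRCm38) had 0.23, 0.20 and 0.22 TPM at day 0.5, against 2.11, 1.95 and 2.01 TPM at day 0. The libraries did not overlap, and the log2 fold change was -3.18 ± 0.21 (approximate SE, edgeR adjusted p = 6.01e-15). Kcna1 fell alongside, with a log2 fold change of -2.72 ± 0.37 (adjusted p = 1.29e-07). Kcna2 rose at the end, with 1.73, 1.75 and 1.71 TPM at day 7, against 0.14, 0.15 and 0.08 TPM at day 4 (log2 3.62 ± 0.23, adjusted p = 2.22e-15). Kcna1 did not pass there (log2 0.15 ± 0.38, adjusted p = 0.752), and the difference between both genes was not tested.

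Kcna5, a delayed rectifier best known from heart muscle, was highest at day 3, at 8.90, 11.7 and 9.15 TPM. It had 9.29, 9.68 and 7.47 TPM at day 4, against 2.95, 1.96 and 2.41 TPM at day 2, a log2 fold change of 1.67 ± 0.21 (edgeR adjusted p = 2.43e-08). Kcna6, another neuronal Kv1 subunit, had 10.5, 10.0 and 11.5 TPM at day 7, against 5.74, 5.37 and 5.97 TPM at day 4 (log2 0.93 ± 0.09, adjusted p = 5.34e-11). Every day 7 library lay above every day 4 library. Kcna4, which gives an inactivating current, had 1.59 to 3.35 TPM at day 7, against 0.10 to 0.25 TPM at day 4 (log2 4.04 ± 0.37). Kcna3 changed in none of the 4 comparisons, with means of 1.05 to 2.03 TPM. The order Kcna5, Kcna1, Kcna6 is that of the genes along chromosome 6, where neighbours lie 104984 and 61944 bases apart, and their highest days were 3, 0 and 7.

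Kv2 channels are slow delayed rectifiers of neuronal cell bodies. Kcnb2 (ENSMUSG00000092083, chromosome 1, 15287254 to 15723750, plus strand) rose in each of the 4 comparisons, and the libraries did not overlap in any of them. It had 0.58, 0.51 and 0.58 TPM at day 0.5, against 0.09, 0.08 and 0.15 TPM at day 0 (log2 2.29 ± 0.20, edgeR adjusted p = 1.42e-11). At day 7 it had 3.12, 3.03 and 2.73 TPM, against 2.18, 2.13 and 1.84 TPM at day 4 (log2 0.53 ± 0.10, adjusted p = 1.19e-05). Amigo1, which binds Kv2 channels, rose in the first 2 comparisons (log2 0.66 ± 0.08 in each) and did not pass at day 4 (-0.08 ± 0.07, adjusted p = 0.358) or day 7 (-0.02 ± 0.07, adjusted p = 0.831).

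Silent Kv subunits form no channel alone and modify Kv2 channels. Of 9 measured members, Kcng1 was the most abundant. It had 8.31, 7.27 and 8.72 TPM at day 0.5, against 2.38, 2.67 and 2.44 TPM at day 0 (log2 1.70 ± 0.12, edgeR adjusted p = 3.45e-14), and then fell in all 3 later comparisons to 0.22 to 0.34 TPM at day 7. Kcnv1, a silent subunit chosen after its values were seen, rose in all 4 and averaged 2.48 TPM at day 7. Kcnf1 passed in 3 comparisons with alternating signs, and its rise at day 2 (log2 0.59 ± 0.19) was lost without day 2 replicate 3.

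Kv3 channels close fast and allow firing at high rates. Kcnc1 (ENSMUSG00000058975, chromosome 7, 46396497 to 46438704, plus strand) had 6.70, 5.84 and 5.82 TPM at day 2, against 0.94, 0.73 and 0.78 TPM at day 0.5 (log2 2.75 ± 0.09, edgeR adjusted p = 2.57e-23). All day 2 libraries lay above those of day 0.5. Kcnc1 reached 23.3, 22.3 and 22.7 TPM at day 7, against 8.0, 7.22 and 7.88 TPM at day 4 (log2 1.47 ± 0.07). Kcnc4, which inactivates, had 2.19, 2.40 and 2.38 TPM at day 7, against 0.05, 0.11 and 0.09 TPM at day 4 (log2 4.72 ± 0.33, adjusted p = 1.17e-14). Kcnc2, another fast channel, had 1.40, 1.32 and 1.13 TPM at day 7, against 0.23, 0.13 and 0.22 TPM at day 4 (log2 2.45 ± 0.35, adjusted p = 1.86e-07). Neither gene had libraries that overlapped between these days.

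Kv4 channels carry the A-type current, which opens below firing threshold and delays spikes. They work with cytoplasmic calcium-binding KChIP proteins (the Kcnip genes) and with the membrane proteins Dpp6 and Dpp10. Kcnd3 (ENSMUSG00000040896, chromosome 3, 105452330 to 105674002, plus strand) was the main Kv4 gene at day 7. It had 32.3, 33.4 and 33.0 TPM at day 7, against 12.1, 11.4 and 12.1 TPM at day 4, a log2 fold change of 1.43 ± 0.07 (edgeR adjusted p = 8.68e-18). At day 4 against day 2, where it had 1.89, 1.96 and 1.87 TPM, its log2 fold change was 2.47 ± 0.09, and at day 2 against day 0.5 it was 3.23 ± 0.18. Libraries did not overlap in any of these 3 comparisons. Kcnd2 came later, with 4.75, 5.19 and 5.35 TPM at day 7, against 0.43, 0.54 and 0.49 TPM at day 4 (log2 3.34 ± 0.23, adjusted p = 1.72e-14). Kcnd1 had means of 1.87 to 5.12 TPM over the 12 days. Exons of Kcnd3 share sequence with Kcnd3os on the other strand, and whether counting used strand is not given in the sources used here.

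The 4 KChIP genes split into an early and a late pair. Kcnip3, which also acts as a calcium-regulated transcription repressor, was the highest of them at day 0 and fell at day 2 and at day 4 (log2 -1.25 ± 0.09 at day 4). At day 0.5 it lay at the threshold (log2 -0.17 ± 0.07, adjusted p = 0.0474). It had 7.85, 8.51 and 7.54 TPM at day 2, against 13.2, 13.1 and 13.8 TPM at day 0.5 (log2 -0.80 ± 0.07, edgeR adjusted p = 2.56e-11). Kcnip2, the KChIP of heart muscle, had 3.96, 4.70 and 4.38 TPM at day 0.5, against 8.36, 9.76 and 6.95 TPM at day 0 (log2 -0.88 ± 0.16, adjusted p = 2.85e-05). Kcnip2 fell again at day 2 against day 0.5. It was then called higher at day 4 against day 2 and at day 7 against day 4. Kcnip1 (ENSMUSG00000053519, chromosome 11, 33629339 to 33993152, minus strand) was highest at day 7, where it had the highest level of any member. It had 46.3, 42.5 and 44.7 TPM at day 7, against 4.82, 4.63 and 4.52 TPM at day 4 (log2 3.22 ± 0.12, adjusted p = 1.27e-21). At day 5 it had 26.0, 22.0 and 20.25 TPM. Kcnip4, the other late KChIP, had 78 counts at day 4 over 3 libraries, against 1 count at day 2, a scaled ratio of 79.2 with a 95% interval of 13.8 to 3170 for counting error only. It reached 4.52, 5.22 and 4.78 TPM at day 7 (log2 2.59 ± 0.34 against day 4).

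The Dpp partners rose in the same window. Dpp6 had 37.3, 41.8 and 34.3 TPM at day 7, against 3.89, 4.23 and 3.55 TPM at day 4 (log2 3.24 ± 0.09, edgeR adjusted p = 6.99e-25). Dpp10 had 39.1, 45.1 and 40.7 TPM at day 7, against 1.03, 0.92 and 1.13 TPM at day 4 (log2 4.98 ± 0.17, adjusted p = 5.44e-23). Dpp10 averaged 27.6 TPM at day 6, against 2.97 TPM at day 5.

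**Figure D4:**
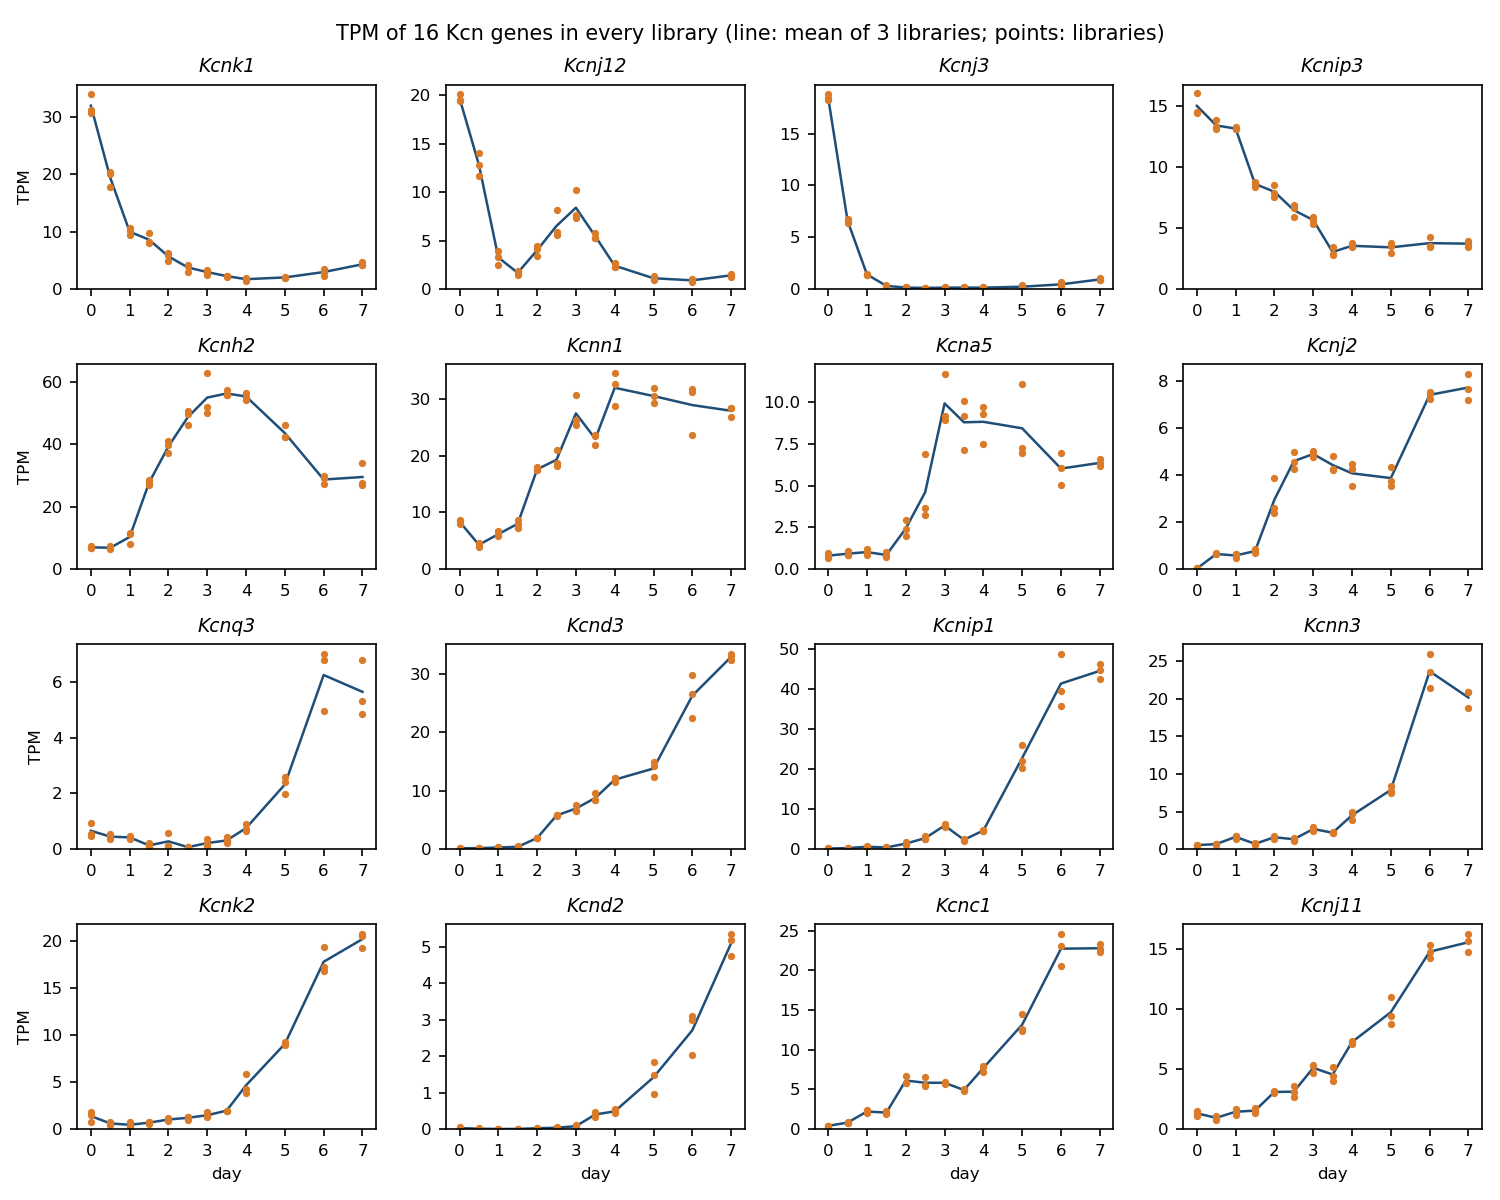
TPM (vertical axes, from 0) of 16 Kcn genes against day (horizontal axes), with each library as a point and the mean of 3 libraries as a line. Kcnk1, Kcnj12, Kcnj3 and Kcnip3 fell early, Kcnh2, Kcnn1, Kcna5 and Kcnj2 rose by day 3, and the lower 8 genes had their highest mean at day 6 or 7, such as Kcnd3 at 32.3 to 33.4 TPM at day 7.

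Kv7 channels carry the M-current, which damps repeated firing in neurons. Kcnq3 (ENSMUSG00000056258, chromosome 15, 65986387 to 66286642, minus strand), a subunit of that current, had 5.31, 6.78 and 4.84 TPM at day 7, against 0.91, 0.65 and 0.71 TPM at day 4 (log2 2.77 ± 0.11, edgeR adjusted p = 1.21e-20). It had also risen at day 4 against day 2, where it had 0.13, 0.13 and 0.58 TPM (log2 2.69 ± 0.18, adjusted p = 4.05e-15), and the step was smaller in TPM, at 1.36 on the scale of log2(TPM + 0.1). The libraries did not overlap in either comparison. Kcnq5, which can join the same current, had 1.51, 1.69 and 1.80 TPM at day 7, against 0.74, 0.67 and 0.72 TPM at day 4 (log2 0.94 ± 0.17, adjusted p = 8.71e-06). Kcnq1, of heart and epithelia, changed in none of the 4 comparisons and did not exceed a mean of 0.28 TPM. It shares exon sequence with Kcnq1ot1 on the other strand.

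The Kcnh genes include Kcnh2, the ERG channel whose human counterpart shapes the end of the cardiac action potential. Kcnh2 (ENSMUSG00000038319, chromosome 5, 24319589 to 24351604, minus strand) had the highest mean of all members over the 36 libraries. It had 41.1, 39.9 and 37.2 TPM at day 2, against 6.66, 6.45 and 7.56 TPM at day 0.5 (log2 1.78 ± 0.07, edgeR adjusted p = 2.39e-20). The step was larger in TPM than in counts, at 2.50 on the scale of log2(TPM + 0.1). It averaged 27.8 TPM at day 1.5, against 10.3 TPM at day 1. It stood near its highest from day 3 to day 4, with 56.6, 55.4 and 54.2 TPM at day 4 (log2 0.62 ± 0.06 against day 2). It then fell to 27.8, 34.1 and 26.9 TPM at day 7 (log2 -0.68 ± 0.06 against day 4, adjusted p = 3.35e-11). In CPM, without replicate 2 and without replicate 3 its highest day was not day 3.5.

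The other Kcnh genes were far lower per length. Kcnh8, an ELK channel, had 0.87, 0.73 and 0.87 TPM at day 0.5, against 4.02, 4.67 and 3.76 TPM at day 0 (log2 -2.42 ± 0.14, edgeR adjusted p = 4.32e-16), and rose again at day 4 against day 2 (log2 1.31 ± 0.14). Kcnh4, also an ELK channel and chosen after its values were seen, rose in both later comparisons to a mean of 6.29 TPM at day 7. Kcnh6 and Kcnh7, the other ERG channels, averaged 1.37 and 1.90 TPM at day 7. Kcnh1, an EAG channel, passed in all 4 comparisons with 3 rises and a fall at day 4. Its rise at day 0.5 was lost without day 0 replicate 1 or day 0.5 replicate 3. The fall was lost without day 2 replicate 3 or in log2(TPM + 0.1).

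Inward rectifiers let potassium in more easily than out and hold cells near rest. Their 12 members had the highest summed level of any subfamily at day 0, at 50.4 ± 1.54 TPM, and the sum was 34.25 ± 2.24 TPM at day 7 (SD, n = 3 each). A change of genes lay behind these sums. Kcnj12 and Kcnj3 made up most of the day 0 level, and Kcnj11 and Kcnj2 most of the day 7 level. The promoters of Kcnj3 and Kcnj12, which fell first, and of Kcnj2 and Kcnn1, which rose by day 2, are shown because they hold the E-boxes searched for, the motifs bound by proneural factors in neurogenesis. Sequences are from RefSeq on GRCm38.p6 and run from 250 bases before to 50 bases after the annotated start, on the strand of the gene, with CAGCTG and CAGATG in capitals. For Kcnj12 and Kcnn1 the start shown lies inside the gene, and its use in these cells was not tested. The CAGATG of Kcnj12 lies after that start. Kcnn1 also has a promoter at its outer end, which holds CAGCTG and is not printed.
Kcnj3, chr2:55435720-55436019, plus strand: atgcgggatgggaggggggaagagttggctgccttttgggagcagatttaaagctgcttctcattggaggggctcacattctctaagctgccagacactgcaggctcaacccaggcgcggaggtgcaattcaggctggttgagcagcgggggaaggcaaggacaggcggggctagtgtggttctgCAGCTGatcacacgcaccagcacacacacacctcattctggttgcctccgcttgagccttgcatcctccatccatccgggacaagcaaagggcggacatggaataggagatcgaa
Kcnj12, chr11:61065554-61065853, plus strand: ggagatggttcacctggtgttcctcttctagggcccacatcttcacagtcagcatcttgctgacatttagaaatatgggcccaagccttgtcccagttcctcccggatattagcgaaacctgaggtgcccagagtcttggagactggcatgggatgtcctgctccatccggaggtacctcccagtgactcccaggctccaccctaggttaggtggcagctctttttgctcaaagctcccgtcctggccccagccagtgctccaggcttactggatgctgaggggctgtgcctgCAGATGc
Kcnj2, chr11:111065914-111066213, plus strand: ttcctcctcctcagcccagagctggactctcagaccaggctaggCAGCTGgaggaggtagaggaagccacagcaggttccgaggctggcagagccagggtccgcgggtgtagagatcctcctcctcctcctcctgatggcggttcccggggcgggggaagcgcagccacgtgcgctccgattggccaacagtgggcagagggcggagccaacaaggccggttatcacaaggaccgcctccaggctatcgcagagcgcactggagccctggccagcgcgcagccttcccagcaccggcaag
Kcnn1, chr8:70856959-70857258, minus strand: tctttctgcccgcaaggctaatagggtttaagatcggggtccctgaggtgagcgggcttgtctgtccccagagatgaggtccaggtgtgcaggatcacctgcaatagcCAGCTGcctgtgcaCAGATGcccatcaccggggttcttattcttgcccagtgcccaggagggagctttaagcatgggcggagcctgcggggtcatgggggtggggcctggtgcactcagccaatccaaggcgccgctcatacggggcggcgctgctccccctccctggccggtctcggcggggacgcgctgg

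The promoter table held 80 promoters of 56 members. CAGCTG, searched on both strands, was in 26.2% of them and in 16.3% of all 32851 promoters of the table. For CAGATG the shares were 17.5% and 17.2%, and for TATAAA 3.75% and 13.6%. The median CpG count was 10 in the promoters of members and 7 in all. Promoters of members highest at day 7 held CAGCTG in 27.7% and those of members highest at day 0 in 23.1%. Some of the promoters of 1 gene overlap, and a match is not evidence of binding.

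Kcnj3 (ENSMUSG00000026824, chromosome 2, 55435970 to 55598145, plus strand), which opens when G proteins are activated, fell early. It had 6.42, 6.78 and 6.60 TPM at day 0.5, against 18.4, 18.8 and 18.2 TPM at day 0 (log2 -1.77 ± 0.12, edgeR adjusted p = 4.62e-14). At day 2 it had 0.20, 0.21 and 0.09 TPM (log2 -5.56 ± 0.21 against day 0.5, adjusted p = 1.39e-21), and the 3 ranges did not touch. It rose at the end to 1.12, 0.87 and 0.87 TPM at day 7, against 0.19, 0.19 and 0.10 TPM at day 4 (log2 2.46 ± 0.25). Its possible partner subunits Kcnj5, Kcnj6 and Kcnj9 did not exceed means of 1.30, 0.53 and 1.31 TPM, and their highest days were 3, 7 and 6.

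The strong inward rectifiers Kcnj12 and Kcnj2 ran in opposite directions. Kcnj12 fell in all 4 comparisons, with 4.45, 4.19 and 3.46 TPM at day 2, against 14.0, 12.8 and 11.6 TPM at day 0.5 (log2 -1.78 ± 0.14, edgeR adjusted p = 1.45e-13). Between these comparisons it had a second peak, with 7.66, 10.2 and 7.39 TPM at day 3, against 4.45, 4.19 and 3.46 TPM at day 2. Kcnj2 had 0.68, 0.63 and 0.64 TPM at day 0.5, against 0.04, 0.00 and 0.04 TPM at day 0 (log2 4.57 ± 0.37, adjusted p = 1.49e-12). It rose further to 3.88, 2.40 and 2.62 TPM at day 2 (log2 2.06 ± 0.15 against day 0.5) and to 7.69, 8.31 and 7.23 TPM at day 7 (log2 0.87 ± 0.12 against day 4). Kcnj4, of the same type, fell in the last 3 comparisons and had 1.22, 1.14 and 0.89 TPM at day 7, against 2.33, 3.47 and 2.06 TPM at day 4 (log2 -1.32 ± 0.20).

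Kcnj11 forms the pore of the ATP-sensitive channel and needs a sulphonylurea receptor, Abcc8 or Abcc9. Kcnj11 (ENSMUSG00000096146, chromosome 7, 46093953 to 46100764, minus strand) had 16.2, 15.6 and 14.7 TPM at day 7, against 7.11, 7.27 and 7.33 TPM at day 4 (log2 0.95 ± 0.10, edgeR adjusted p = 1.20e-10). Abcc8 had 14.1, 12.8 and 9.42 TPM at day 7, against 4.98, 4.04 and 4.40 TPM at day 4 (log2 1.43 ± 0.11, adjusted p = 4.68e-13). Abcc9 did not exceed a mean of 0.22 TPM on any day, and Kcnj8, the other pore of this kind, did not exceed 1.47 TPM.

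Kcnj10 and Kcnj16 together make a channel of astroglia, and their courses differed. Kcnj10 had 2.26, 2.76 and 2.08 TPM at day 2, against 0.88, 0.58 and 0.86 TPM at day 0.5 (log2 1.50 ± 0.18, edgeR adjusted p = 7.31e-09), and was lower at day 4 (log2 -1.30 ± 0.18 against day 2). Kcnj16 had 371 counts at day 7 over 3 libraries, against 1 count at day 4, a scaled ratio of 339 with a 95% interval of 60.5 to 13400 for counting error only. It reached 10 counts in only 6 libraries and met the count minimum through its late days, so a rise there was set by the rule. In TPM it had 2.74, 3.14 and 1.93 at day 7 and 0.49, 0.55 and 0.68 at day 6, and no earlier library exceeded 0.03. Astroglial markers rose over the same days, as given above. Kcnj16 and Kcnj2 are neighbours on chromosome 11, 38195 bases apart.

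Two-pore-domain channels carry the leak current. Kcnk1 (ENSMUSG00000033998, chromosome 8, 125995170 to 126030685, plus strand), a weak channel partly held inside cells, was the highest member of all at day 0. It had 20.3, 17.8 and 20.1 TPM at day 0.5, against 31.1, 30.7 and 34.0 TPM at day 0 (log2 -0.68 ± 0.08, edgeR adjusted p = 1.03e-08). It had 4.88, 5.97 and 6.33 TPM at day 2 (log2 -1.90 ± 0.09 against day 0.5) and 1.98, 1.81 and 1.51 TPM at day 4 (log2 -1.82 ± 0.12 against day 2). Each of these days lay below the one before in every library. The last step was upward, with 4.69, 4.18 and 4.20 TPM at day 7 (log2 1.25 ± 0.12 against day 4, adjusted p = 9.93e-11).

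Kcnk2 and Kcnk10, the mechanosensitive TREK channels, both rose over the later days. Kcnk10 had 7.97, 6.89 and 7.24 TPM at day 4, against 1.25, 0.72 and 0.73 TPM at day 2 (log2 3.35 ± 0.15, edgeR adjusted p = 1.78e-19). Kcnk2 (ENSMUSG00000037624, chromosome 1, 189207930 to 189402273, minus strand) had 19.3, 20.8 and 20.6 TPM at day 7, against 4.31, 5.86 and 3.83 TPM at day 4 (log2 2.17 ± 0.12, adjusted p = 1.13e-17). By day 7 Kcnk2 was the higher of both in every library, while at day 3.5 Kcnk10 was, at 7.20 to 7.68 TPM beside 1.96 to 1.98 TPM. The acid-sensitive channels Kcnk3 and Kcnk9 differed at day 4. Kcnk3 had 0.85, 1.37 and 1.02 TPM at day 4, against 0.15, 0.21 and 0.18 TPM at day 2 (log2 2.33 ± 0.30), and Kcnk9 had 1.03, 0.85 and 0.78 TPM at day 4, against 2.81, 1.79 and 1.91 TPM at day 2 (log2 -1.46 ± 0.29). Both rose to day 7, Kcnk3 to 4.94 to 5.82 TPM and Kcnk9 to 4.39 to 5.96 TPM. Earlier, Kcnk9 had 130 counts at day 2 over 3 libraries, against 3 counts at day 0.5, a scaled ratio of 41.4 with a 95% interval of 13.8 to 203 for counting error only. Kcnk5, an alkaline-activated channel, fell in the last 3 comparisons to 2.26, 2.50 and 2.25 TPM at day 7, against 4.31, 5.21 and 5.70 TPM at day 4 (log2 -1.17 ± 0.12).

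Small-conductance Kcnn channels open with internal calcium and contribute to the afterhyperpolarisation of motor neurons and other neurons. Kcnn1 (ENSMUSG00000002908, chromosome 8, 70842049 to 70863258, minus strand) was the mid-course member. It had 3.91, 4.37 and 4.66 TPM at day 0.5, against 7.97, 8.45 and 8.72 TPM at day 0 (log2 -1.03 ± 0.08, edgeR adjusted p = 7.60e-13). It had 17.4, 17.4 and 17.9 TPM at day 2 (log2 2.07 ± 0.07 against day 0.5, adjusted p = 3.40e-22) and 32.6, 34.5 and 28.7 TPM at day 4 (log2 0.59 ± 0.06 against day 2). At day 7 it had 28.4, 28.4 and 26.9 TPM, and its log2 fold change of -0.23 ± 0.06 against day 4 passed in edgeR (adjusted p = 0.00125) but not in log2(TPM + 0.1) or log2(TPM + 1).

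Kcnn3 (ENSMUSG00000000794, chromosome 3, 89520164 to 89675132, plus strand) rose later. It had 20.9, 20.8 and 18.7 TPM at day 7, against 4.98, 3.93 and 4.61 TPM at day 4 (log2 2.16 ± 0.08, edgeR adjusted p = 1.34e-21), and 21.4 to 25.9 TPM at day 6. Kcnn2 dipped, with 2.58, 2.27 and 2.01 TPM at day 2, against 3.20, 3.55 and 2.62 TPM at day 0.5 (log2 -0.56 ± 0.14), and had 7.31, 7.54 and 7.74 TPM at day 7, against 2.94, 2.83 and 2.04 TPM at day 4 (log2 1.47 ± 0.13). Kcnn4, the intermediate-conductance channel of blood cells and epithelia, did not exceed a mean of 0.66 TPM.

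Kcnma1 forms the large-conductance channel gated by both calcium and voltage, and the Kcnmb genes encode its membrane partners. Kcnma1 had 7.88, 8.34 and 8.90 TPM at day 7, against 3.88, 2.95 and 3.45 TPM at day 4 (log2 1.28 ± 0.10, edgeR adjusted p = 9.33e-13). Kcnmb4, the partner typical of neurons, had 10.7, 12.9 and 10.8 TPM at day 7, against 8.05, 8.07 and 7.22 TPM at day 4 (log2 0.48 ± 0.12, adjusted p = 0.00104). Its value is uncertain, since it shares exon sequence with Kcnmb4os1 and Kcnmb4os2 on the other strand. Kcnmb4os2 averaged 2.02 TPM over all libraries. Kcnmb2, which makes the channel inactivate, had 6.17 to 9.73 TPM at day 7, against 0.56 to 0.99 TPM at day 4 (log2 2.70 ± 0.28 in counts, 471 against 66). All 6 measured Kcnmb and Kcne genes rose at day 7, among them Kcne1l with 7.35, 7.68 and 6.01 TPM, against 2.64, 3.09 and 1.72 TPM at day 4 (log2 1.45 ± 0.20). The sodium-activated channels Kcnt1 and Kcnt2 both fell at day 0.5, Kcnt2 to 2.00, 1.33 and 1.43 TPM against 4.74, 4.38 and 4.17 TPM at day 0 (log2 -1.50 ± 0.18). Kcnt1 rose at day 7 to 2.2, 5.33 and 2.61 TPM, against 0.72, 0.22 and 0.16 TPM at day 4 (log2 3.48 ± 0.29).

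The Kcnab genes encode cytoplasmic subunits of Kv1 channels. Kcnab2 had 4.41, 2.86 and 5.32 TPM at day 0.5, against 2.05, 2.13 and 2.93 TPM at day 0, and day 0.5 replicate 2 lay within the day 0 range. Its log2 fold change was 1.13 ± 0.11 (edgeR adjusted p = 7.32e-11). Kcnab2 shares exon sequence with Gm16334 on the same strand, and its value is uncertain. Kcnab3 fell at day 0.5 (log2 -1.44 ± 0.19) and again at day 2 (log2 -0.88 ± 0.21). Kcnab1 had a mean of 1.58 TPM at day 7, and 0.17 TPM at day 4 (log2 2.81 ± 0.49).

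Genes that work with potassium channels were mostly higher from day 2 on. Of 27 listed partners, 24 were tested, and 20 rose and 0 fell at day 4 against day 2, where 33.1% of all tested genes were higher and 31.8% lower. At day 7 against day 4, 18 rose and 2 fell, beside 33.5% and 32.9% of all genes, and the list's median log2 fold changes in these comparisons were 1.03 and 0.93. The early comparisons were mixed, with 4 partners higher and 9 lower at day 0.5, beside 27.6% and 26.7% of all genes, and 10 higher and 11 lower at day 2, beside 33.9% and 34%. Among pumps and cotransporters that set the potassium gradient, 15 of 17 were tested, and 9 rose and 3 fell at day 7 against day 4, with the shares of all genes as above. In the 3 earlier comparisons 3 rose and 8 fell at day 0.5, 5 rose and 5 fell at day 2, and 7 rose and 2 fell at day 4. Slc12a5, the potassium-chloride cotransporter of mature neurons, had 36.7, 37.7 and 38.9 TPM at day 7, against 17.5, 17.4 and 19.4 TPM at day 4 (log2 1.21 ± 0.09, adjusted p = 2.96e-14).

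Between days 1 and 4, some members stood lower on average at days 1.5, 2.5 and 3.5 than the line between the days on either side. A contrast chosen after the values were seen set days 1.5, 2.5 and 3.5 against the level interpolated from days 1, 2, 3 and 4 in the same edgeR model. Of the 79 members, 19 were lower and 6 higher at these intermediate days, where 25.4% of all tested genes were lower and 27.9% higher. Called in either direction were 53.3% of all genes, so such a departure was not particular to the members. Kcnip1 had 2.35, 2.15 and 2.56 TPM at day 3.5, between 5.82, 6.28 and 5.60 TPM at day 3 and 4.82, 4.63 and 4.52 TPM at day 4. The day 3.5 libraries were below those of both neighbours. Kcnj5 was lower at the intermediate days by a log2 value of -1.84 ± 0.22 (adjusted p = 1.06e-08), Kcnmb1 by -1.62 ± 0.22 (adjusted p = 1.59e-07), Kcnip2 by -1.00 ± 0.14 and Kcnn3 by -0.77 ± 0.06 (adjusted p = 3.50e-12). Kcng1 was higher by 0.42 ± 0.07. The labels do not say what else these days share, and its part was not tested.

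**Figure D5:**
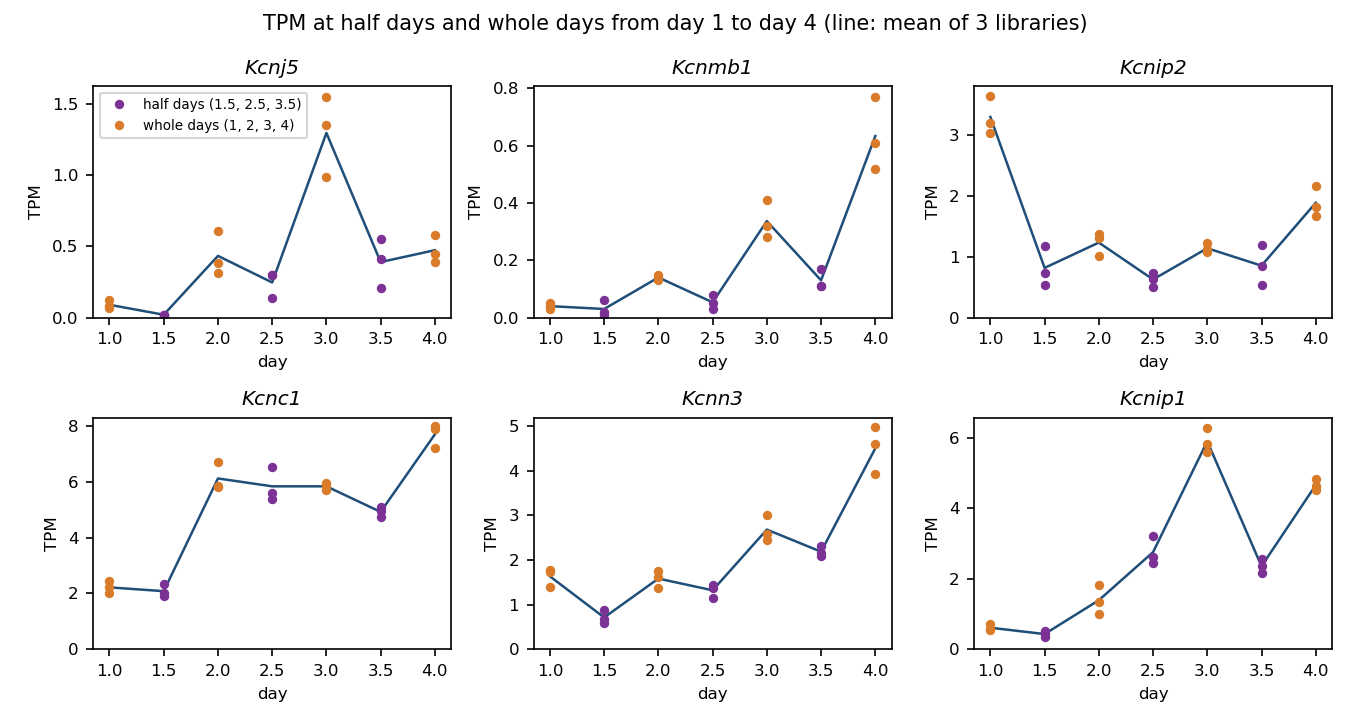
TPM (vertical axes, from 0) of 6 Kcn genes at days 1.5, 2.5 and 3.5 (purple points) and at the days on either side (orange points) from day 1 to day 4, with each point a library and the line the mean of 3 libraries. In 5 of the 6, all but Kcnip2, the 3 day 3.5 libraries stand below the day 3 mean, and Kcnip1 averaged 2.35 TPM at day 3.5 beside 5.90 TPM at day 3.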

How the data were processed

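Polyadenylated RNA was measured at 12 time points with 3 replicates each. The submitters' processing notes name bcl2fastq 2.20.0, RSEM and GRCm38. Aligner, annotation release and strand setting: not given in the sources used here. Deposited were expected counts from RSEM (6.87% of values not whole) and a TPM table, both per gene. Symbols matched 51633 of 51912 gene IDs. Gene coordinates are from GENCODE M21 on GRCm38, counted from 1.

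Expected counts were rounded. Genes were kept with filterByExpr by time point (17990 of 32047 with a count) and fitted in edgeR 4.0.16 (R 4.3.3) with TMM scaling (factors 0.924 to 1.06), all 36 libraries, 12 groups and 24 residual degrees of freedom. Adjusted p-values are Benjamini-Hochberg over all genes tested, with a threshold of 0.05. The approximate SE is the log2 fold change divided by the root of F. Where a day held 1 to 3 counts, a ratio with an exact 95% interval is given, and it covers counting error only. Replicates differed beyond sampling noise in all 36 pairs (chi-square per degree of freedom 3.0 to 49.9), highest for day 0 replicates 1 and 2, and 0 pairs were identical. The alternatives tried were DESeq2 1.42.0, scaling by median of ratios, no filter, only the 6 libraries compared, a replicate block, each replicate left out, and limma 3.58.1 on log2(TPM + 1) or log2(TPM + 0.1).

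The members, the gene lists and the marker lists were chosen with earlier results of these data known. Genes named were a panel of 30, the 6 largest rises and 6 largest falls per comparison among called members of at least 1 TPM, and the 3 highest means. Kcna3, Kcna5, Kcnd1, Kcne4, Kcnh4, Kcnh6, Kcnh7, Kcnip3, Kcnj5, Kcnj8, Kcnj9, Kcnj11, Kcnmb1, Kcnmb2, Kcnmb4, Kcnc2, Kcnn4, Kcnq1, Kcnq5 and Kcnv1 were named after their values were seen. Exons of 22 members overlap those of another gene on the opposite strand, and their values are uncertain to that extent. Among them are Kcna6, Kcnd3, Kcnip4, Kcnj3, Kcnk1, Kcnk2, Kcnk3, Kcnma1, Kcnmb4, Kcnn2 and Kcnq5. Some genes that the rule names are not reported here.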

Additional observations from a re-analysis of the deposited data

How the results depend on the processing

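The counts of Kcn genes called kept within 1.5 times their value in each of the 4 comparisons under all alternatives run. At day 0.5 against day 0 they ran from 16 to 19 higher and 22 to 26 lower, at day 2 against day 0.5 from 22 to 27 and 22 to 26, at day 4 against day 2 from 36 to 44 and 14 to 17, and at day 7 against day 4 from 51 to 54 and 7 to 10. Of 123 called results for genes named by the rule, 106 kept their call in every alternative and 17 lost it in at least 1. Among 1912 values from the alternatives, 0 changed sign where either value was called. Sign changes where neither value was called were not counted. No pairing of the libraries by replicate number was seen. Of 12 same-numbered pairs, 1 correlated above 0.1 (range -0.107 to 0.124), and differently numbered pairs ran from -0.1585 to 0.142. With 3 libraries per day the check cannot exclude a pairing. With a replicate block, the counts were 19 and 26, 27 and 25, 44 and 17, and 52 and 10, and 78 members changed over the course. At days 1.5, 2.5 and 3.5 against their neighbours the count of higher members was 3 in limma on log2(TPM + 1), 3 to 9 with a replicate left out, the lowest being without replicate 2, and 6 with the block. The count of lower members there was 16 to 21. The cause was not tested. Of the 79 members, 42 did not reach 10 counts in every library, some of them falling short only early in the course. A gene could thus meet the minimum through the days where it was high. Kcnj6, Kcne4, Kcnj16 and Kcna4 reached 10 counts in 3, 6, 6 and 8 libraries. All of them were highest at day 7 and are counted among the members higher at day 7 against day 4.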

Other observations

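Some Kcn genes are neighbours in the genome. Kcnj9 and Kcnj10 lie 11891 bases apart on chromosome 1, with highest days of 6 and 2. Kcna3 and Kcna2 lie 63075 bases apart on chromosome 3, with highest days of 1.5 and 0. Kcnmb1 lies within Kcnip1 on chromosome 11, and both were highest at day 7. Averaged over days 1.5, 2.5 and 3.5, both were lower than the level interpolated from days 1, 2, 3 and 4.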
